A study of Sus scrofa with 36 samples.

Results

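The genes described here encode the factors that start and carry out protein synthesis and the enzymes that load amino acids onto transfer RNAs. They were chosen by symbol: probe sets with a single gene symbol beginning with EIF or EEF, the symbol ETF1, and the synthetase symbols made of a letter and ARS, with an optional 1 or 2, or beginning with EPRS. The rule found 60 genes, 41 translation factors and 19 tRNA synthetases, among 6360 genes with a single-symbol probe set on the pig array. The members carried 92 of 9149 single-symbol probe sets, and each gene was represented by its probe set with the highest mean over 36 arrays. The rule used no comparison between groups. The RefSeq gene table used here held 100 genes whose symbols fit the rule, so 40 of them were not measured under a symbol of their own, among them ETF1, EEF2, EEF2K, EEF1A2, EIF4EBP1 and EIF2B5.

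Mammary gland RNA was measured in 36 female peripubertal Yucatan miniature swine aged 5 months, 1 array per animal and 4 animals per group. In all 8 ovariectomized groups the ovaries were removed and bromocriptine, a dopamine agonist that lowers prolactin, was given for 8 days. For the next 5 days, HEP animals received haloperidol, estrogen and progesterone, HE animals haloperidol and estrogen, BEP animals bromocriptine, estrogen and progesterone, and BE animals bromocriptine and estrogen. Over the same days HP animals received haloperidol and progesterone, H animals haloperidol, BP animals bromocriptine and progesterone, and B animals bromocriptine alone. Haloperidol is a dopamine antagonist that raises prolactin, so it stands for prolactin only through the pituitary and may act elsewhere. Sham animals had intact ovaries after a sham operation and were given saline over 13 days. All animals were injected with BrdU a day before the end. The question behind the design was how these hormones act together on growth and gene expression of the gland.

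Translation starts when the eIF4F cap complex, built from EIF4E, EIF4G1 and EIF4A1, and the large eIF3 complex bring the small ribosomal subunit to an mRNA, with the initiator tRNA carried by eIF2. The factor eIF2B recharges eIF2 with GTP and is the point at which eIF2 kinases slow initiation, while the EIF4E binding proteins, released by mTORC1 signalling, hold EIF4E back. Each synthetase attaches 1 kind of amino acid, or in EPRS 2 kinds, to its tRNA, in the cytosol or in mitochondria, and in the mammary gland this machinery serves both the growth of epithelium and, in lactation, the synthesis of milk protein.

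The values were deposited as RMA summaries and were read as log2. The 36 arrays had medians between 7.83 and 7.912 and correlated with each other at 0.865 to 0.9836. The array of BP animal A stood apart from the other BP arrays and lay nearest to HE. High skeletal muscle markers marked 5 arrays, all without estrogen (B animal A, BP animal A, H animal C, HP animals A and C). Named calls in the averages and interactions that change without these 5 arrays are also given without them. Luminal epithelial markers matched the labelled tissue, with 15 of 16 measured markers above every array's median on average. Most members gave bright signals: 36 of 41 factors and 12 of 19 synthetases had a mean above every array's upper quartile. NARS2, the mitochondrial asparaginyl-tRNA synthetase, lay below the lower quartile on 36 of 36 arrays, so its values carry little weight. Levels of different probe sets were not compared, because probes differ in brightness.

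The members moved little from group to group. The median range of the 8 ovariectomized group means was 0.566 log2 units for factors, 0.686 for synthetases and 0.761 for all genes. The median SD within groups, over all 9 groups, was 0.267, 0.276 and 0.364 in that order. No member changed by more than 1 log2 unit on average with estrogen, where 325 of 6360 genes did. The groups given both haloperidol and estrogen often had the highest means, more clearly among the synthetases than among the factors. Among the 8 ovariectomized groups, the highest mean fell in HE or HEP for 20 of 41 factors (48.8%) and 14 of 19 synthetases (73.7%). Over all genes it did so for 38.5%.

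**Figure D1:**
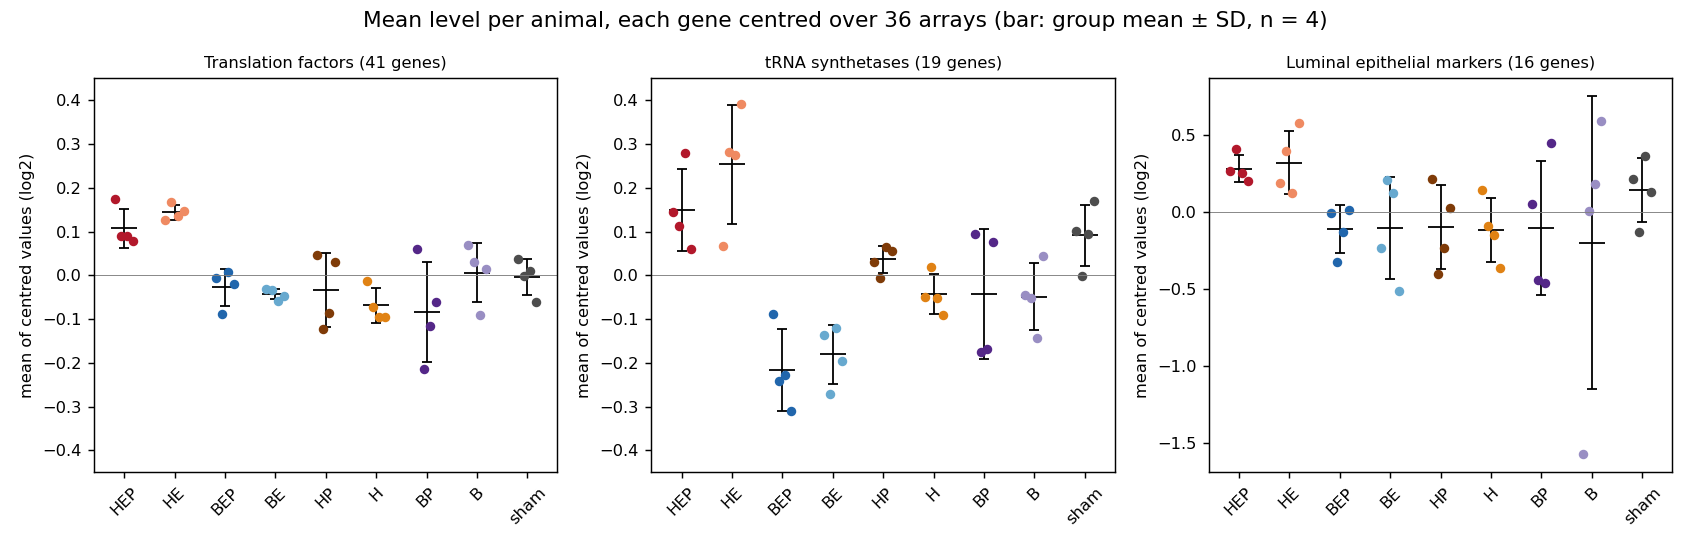
Mean over the factors, the synthetases and the luminal epithelial markers in each animal, after each gene was centred over 36 arrays (vertical axis, log2 units; points are animals, bars are group mean ± SD, n = 4). The 4 HE and 4 HEP animals lie at 0.07774 to 0.1742 for the factors and 0.0596 to 0.3905 for the synthetases. The BE and BEP animals lie at -0.3095 to -0.08775 for the synthetases. The means of the luminal markers are also highest in HE and HEP, but the highest B animal (0.5896) lies above every HE and HEP animal.

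When each gene was centred and the synthetases were averaged in each animal, HEP animals had a mean of 0.15 ± 0.094 and HE animals 0.25 ± 0.14 log2 units (SD, n = 4 each). BEP animals had -0.22 ± 0.093 and BE animals -0.18 ± 0.068, HP 0.04 ± 0.031, H -0.04 ± 0.046, BP -0.04 ± 0.15, B -0.05 ± 0.076 and sham 0.09 ± 0.070. No animal of BEP or BE reached the lowest animal of HEP or HE, whereas the means of the estrogen-free groups and sham lay between theirs. Ranges overlapped, as B, BP and H reached into the range of BE and BEP, and BP, HP and sham into that of HE and HEP. Sham animals ran from -0.0008 to 0.17 with a median of 0.099, above the lowest HE or HEP animal (0.06). BP animals ran from -0.17 to 0.096, into both ranges. For the factors the 8 HE and HEP animals had a mean of 0.126 ± 0.037 and the 8 BE and BEP animals -0.035 ± 0.030 (SD), while the 8 H and HP animals had -0.051 ± 0.064 and the 8 B and BP animals -0.038 ± 0.099. The luminal epithelial markers averaged 0.28 ± 0.088 in HEP, 0.32 ± 0.21 in HE and 0.14 ± 0.21 in sham animals. Their means lay between -0.20 and -0.10 in the other ovariectomized groups. They ran from -1.57 to 0.59 in B animals (SD 0.95). The highest animal had 0.44 in BP, 0.36 in sham, 0.21 in HP, 0.21 in BE and 0.14 in H. The lowest HEP animal had 0.20 and the lowest HE animal 0.12. B, BP, sham, HP and BE thus overlapped HEP and HE, and H overlapped HE. Adipocyte markers averaged -0.90 in HEP and -0.83 in HE animals, and 0.02 in BEP, 0.01 in BE, 0.62 in HP, 0.75 in H, 0.11 in BP, 0.55 in B and -0.33 in sham animals. With estrogen, 12 of 14 skeletal muscle, 7 of 11 adipocyte, 7 of 11 endothelial and 4 of 13 leukocyte markers fell and none of them rose, with median changes of -2.24, -1.19, -0.68 and -0.30 log2 units. The interaction of estrogen with haloperidol was called lower for 5 adipocyte, 3 leukocyte, 2 endothelial and 0 skeletal muscle markers. Over all probe sets 17.6% were called lower with estrogen and 3.62% in this interaction. The part of these cell types in the results below was not tested. In whole tissue, fewer cells of a type and less RNA per cell cannot be told apart.

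Estrogen was compared with its absence over 16 animals each, averaged over the haloperidol and progesterone backgrounds. With estrogen, 11 of 41 factors rose and 4 fell (limma, adjusted p under 0.05 over all 20792 probe sets), and 4 of 19 synthetases rose and 2 fell. Over all probe sets 17.5% rose and 17.6% fell. The factors that rose made 26.8% of their class, and the synthetases that rose 21.1%. The median change was 0.08 log2 units for factors and 0.07 for synthetases, against 0.006 for all probe sets.

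The eIF3 and eIF4F groups held most of the factors that rose. Of 9 measured eIF3 subunits, the scaffold that recruits the small ribosomal subunit, 4 rose with estrogen and 0 fell. EIF3B rose by 0.61 ± 0.15 log2 units (SE, adjusted p = 0.00173), a 1.52-fold change. EIF3M rose by 0.39 ± 0.13 (adjusted p = 0.0159), EIF3I by 0.29 ± 0.10 (adjusted p = 0.0217) and EIF3A by 0.22 ± 0.08 (adjusted p = 0.0256). The other 5 (EIF3D, EIF3E, EIF3H, EIF3K and EIF3L) did not pass the test. For EIF3A the call was lost without BE animal B, without BEP animal D and without the 5 muscle-rich arrays (adjusted p = 0.0851).

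EIF3B, an RNA-binding core subunit of eIF3, had 8.73, 8.82, 8.95 and 9.07 log2 units in HEP animals and 8.44, 8.64, 8.93 and 9.23 in HE animals. BEP animals had 8.07, 8.10, 8.22 and 8.48 and BE animals 7.56, 8.04, 8.10 and 8.44. Its values were 7.73, 7.78, 7.88 and 8.25 in HP, 7.30, 7.31, 7.89 and 7.96 in H, 6.69, 7.75, 8.06 and 8.99 in BP, 8.00, 8.05, 8.17 and 8.32 in B, and 7.79, 7.90, 8.17 and 8.66 in sham. Every HEP animal was above every HP animal and every HE animal above every H animal, while BE overlapped B. BP spread over more than any other group, with animal A highest.

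**Figure D2:**
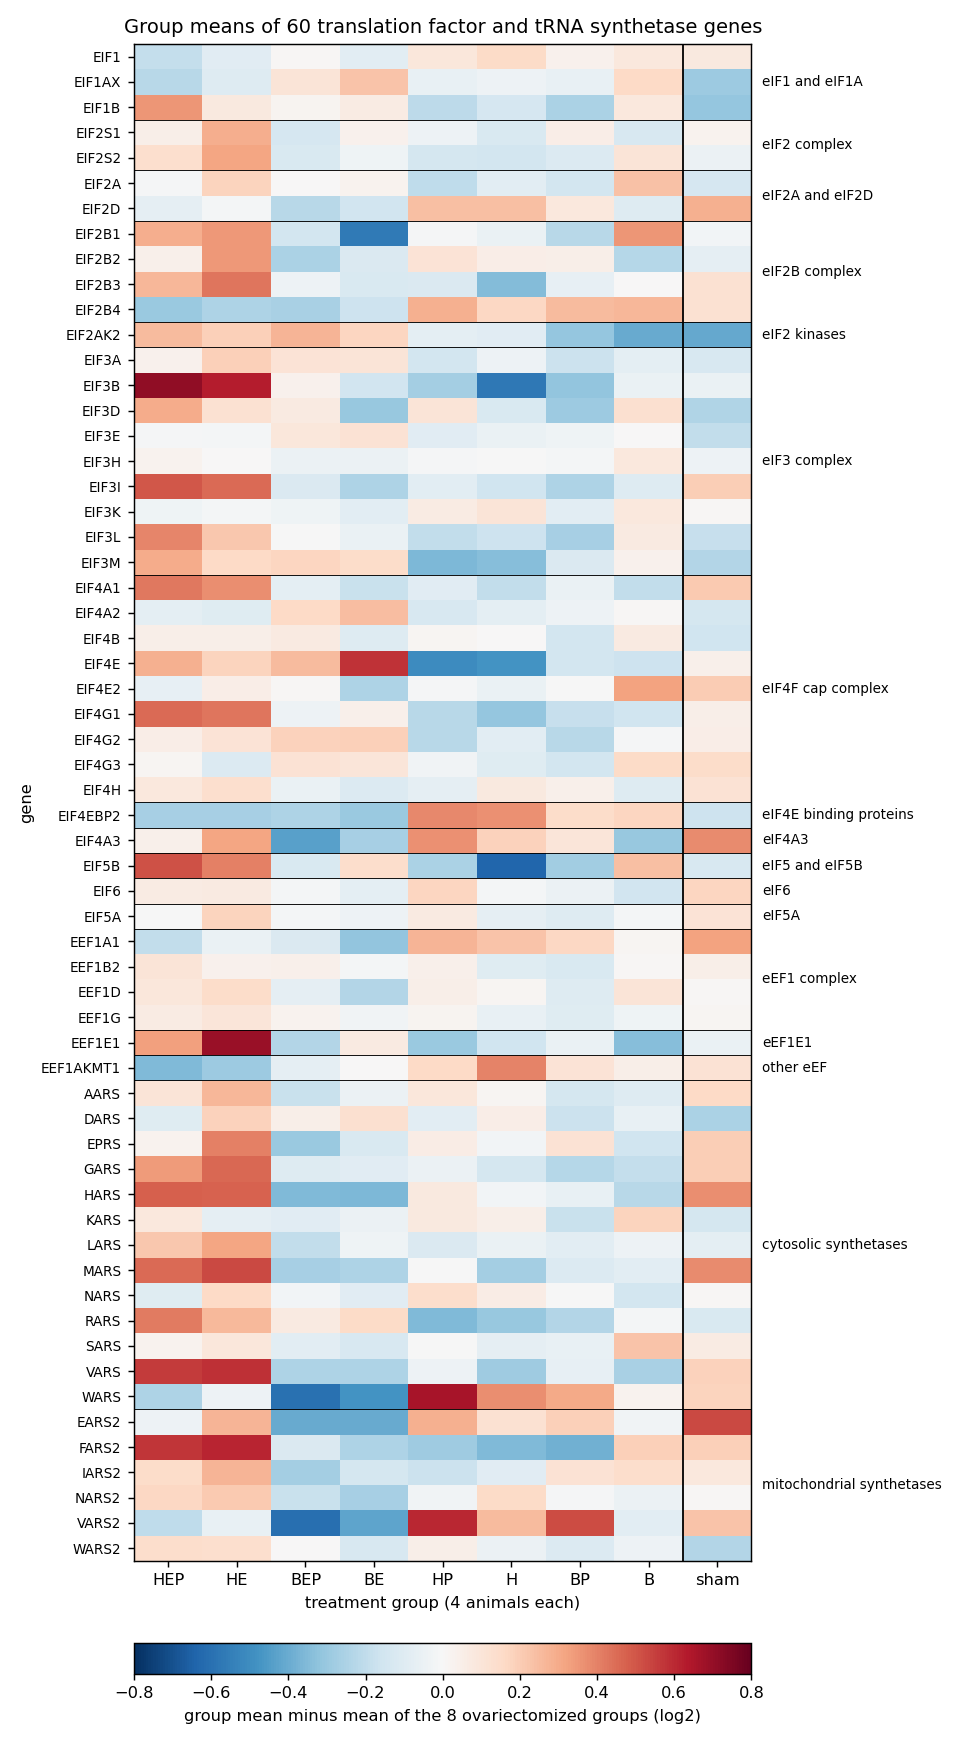
Group means of the 60 genes (rows, grouped by role) minus the mean of the 8 ovariectomized groups, in log2 units by colour, for the 9 groups (columns; 4 animals each, sham right of the line). EIF3B, EIF3I, EIF5B, MARS, VARS and FARS2 are red in HEP and HE, WARS and VARS2 are blue in BEP and BE and red in HP, and EIF4EBP2 is blue in all 4 estrogen groups.

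Of 9 genes grouped here with eIF4F, 4 rose with estrogen and 0 fell. The group includes relatives such as EIF4G2 and EIF4E2 that are not parts of the complex itself. EIF4E, the protein that binds the mRNA cap, rose by 0.65 ± 0.18 log2 units (adjusted p = 0.00705), a 1.57-fold change. EIF4G1, the scaffold of the complex, rose by 0.44 ± 0.12 (adjusted p = 0.00378), EIF4G2, a relative that works without cap binding, by 0.27 ± 0.08 (adjusted p = 0.00761) and the RNA helicase EIF4A1 by 0.27 ± 0.09 (adjusted p = 0.0226). The call for EIF4A1 was lost after a second quantile normalization (adjusted p = 0.0641).

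EIF4E had 7.78, 8.48, 8.86 and 9.00 log2 units in HEP animals, 7.41, 8.55, 8.55 and 9.19 in HE, 8.10, 8.48, 8.60 and 8.81 in BEP and 8.20, 8.81, 9.07 and 9.20 in BE. Without estrogen it had 7.17, 7.26, 8.22 and 8.31 in HP, 7.38, 7.67, 7.75 and 8.27 in H, 7.51, 7.97, 8.16 and 8.73 in BP and 7.59, 7.96, 7.97 and 8.80 in B, and sham animals had 7.36, 8.32, 8.45 and 9.02. Of the 16 estrogen animals, 14 lay above the mean of the 16 without, and the ranges of the groups overlapped.

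EIF4EBP2, a repressor that competes with EIF4G1 for EIF4E, was the member with the lowest p for estrogen. It fell by 0.54 ± 0.08 log2 units (adjusted p = 7.98e-06). Its values were 10.90, 10.91, 10.96 and 11.47 in HEP animals, 10.86, 10.99, 11.07 and 11.32 in HE, 10.90, 11.10, 11.12 and 11.20 in BEP and 10.83, 10.93, 11.16 and 11.21 in BE. Without estrogen they were 11.55, 11.66, 11.76 and 11.88 in HP, 11.49, 11.68, 11.68 and 11.92 in H, 11.00, 11.48, 11.61 and 11.81 in BP and 11.42, 11.52, 11.53 and 11.54 in B, and sham animals had 11.03, 11.12, 11.19 and 11.31. All 16 estrogen animals were below the mean of the 16 without estrogen, and outside BP animal A, at 11.00, no estrogen-free ovariectomized animal was lower than 11.42. This holds for the brightest of its 5 probe sets only: the others changed by -0.29 to 0.23 and none was called, and over the mean of the 5 the change was -0.17 (adjusted p = 0.085). The related EIF4EBP1 was not measured under a symbol of its own.

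In the eIF2 and eIF2B group the changes went both ways. EIF2B4, the delta subunit of the exchange factor, fell by 0.48 ± 0.10 log2 units with estrogen (adjusted p = 0.000319), and EIF2B3, its gamma subunit, rose by 0.26 ± 0.10 (adjusted p = 0.0396). EIF2B4 had 9.50 to 10.09 in HEP, 9.69 to 10.08 in HE, 9.55 to 10.28 in BEP and 9.87 to 10.27 in BE, against 10.04 to 10.69 in HP, 10.11 to 10.53 in H, 9.90 to 10.85 in BP and 10.16 to 10.67 in B, with 10.00 to 10.50 in sham. No estrogen animal reached the mean of the 16 animals without estrogen. The call for EIF2B3 was lost with 12 of the 36 arrays left out in turn, and with array weights (adjusted p = 0.0535). EIF2B1 and EIF2B2 did not pass. EIF2S1, the alpha subunit of eIF2 on which the eIF2 kinases act, changed by 0.12 ± 0.10 (adjusted p = 0.342). EIF2AK2, the kinase activated by double-stranded RNA, changed by 0.44 ± 0.19 and missed the threshold (adjusted p = 0.0705), and it passed without BP animal A (adjusted p = 0.0419), with array weights (adjusted p = 0.015) and with the title letter as a replicate block (adjusted p = 0.0498).

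Among the remaining factors, EIF5B, the GTPase that joins the ribosomal subunits, rose by 0.46 ± 0.15 log2 units (adjusted p = 0.0156), and EEF1E1, a scaffold protein of the multi-synthetase complex, rose by 0.43 ± 0.13 (adjusted p = 0.010). EEF1A1, which delivers charged tRNA to the ribosome, fell by 0.34 ± 0.11 (adjusted p = 0.0118) on 1 of its 3 probe sets. EEF1AKMT1, a methyltransferase that modifies EEF1A and is no elongation factor itself, fell by 0.36 ± 0.11 (adjusted p = 0.0132). EEF1B2, EEF1D and EEF1G, which recharge EEF1A1 with GTP, did not pass, nor did EIF5A, which helps ribosomes through stalling stretches (0.06 ± 0.06, adjusted p = 0.49), or EIF6, which keeps the ribosomal subunits apart (0.02 ± 0.10, adjusted p = 0.89). With the mean over a gene's probe sets, EIF3M, EIF5B, EEF1A1 and EEF1AKMT1 were no longer called, at adjusted p = 0.186, 0.0589, 0.0708 and 0.283.

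**Figure D3:**
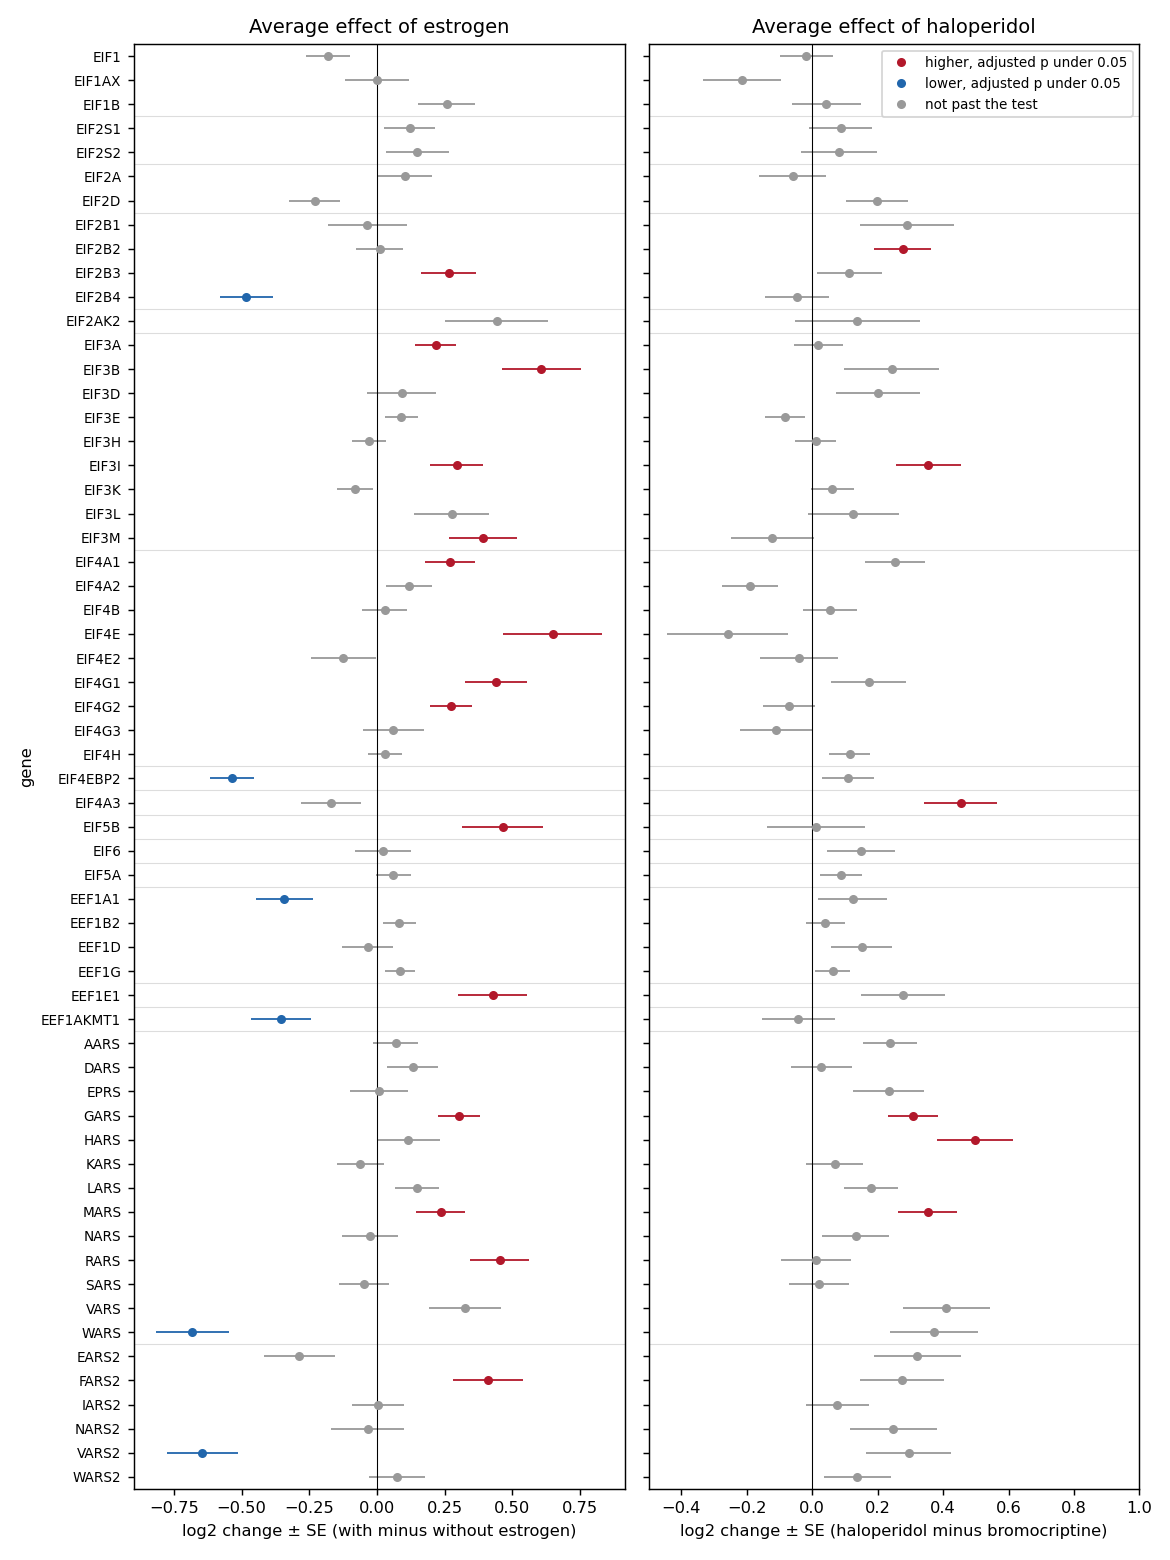
Average log2 change ± SE of each of the 60 genes with estrogen (left, with minus without, 16 animals each) and with haloperidol (right, haloperidol minus bromocriptine, 16 animals each); red and blue points passed the test upward and downward. Estrogen moved members both ways, whereas all 19 synthetases lie right of 0 for haloperidol.

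The synthetases also split with estrogen. The arginyl enzyme RARS rose by 0.45 ± 0.11 log2 units (adjusted p = 0.00166), the mitochondrial phenylalanyl enzyme FARS2 by 0.41 ± 0.13 (adjusted p = 0.0135), the glycyl enzyme GARS by 0.30 ± 0.08 (adjusted p = 0.00282) and the methionyl enzyme MARS by 0.23 ± 0.09 (adjusted p = 0.0419). The call for MARS was lost with 16 of the 36 arrays left out in turn, after a second quantile normalization (adjusted p = 0.0719) and with only the ovariectomized arrays in the fit (adjusted p = 0.0536). The tryptophanyl enzyme WARS fell by 0.68 ± 0.13 (adjusted p = 0.000239), a 1.60-fold change, and the mitochondrial valyl enzyme VARS2 by 0.64 ± 0.13 (adjusted p = 0.000332). GARS rose on 3 of 3 probe sets and WARS fell on 3 of 3. EPRS, the fused glutamyl and prolyl enzyme, changed by 0.01 ± 0.11 on its brightest probe set (adjusted p = 0.968), while its 2 dimmer probe sets were called higher, at 0.43 and 1.16, as was the mean over the 3 probe sets (0.53, adjusted p = 0.00387).

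WARS had 8.14, 8.58, 8.68 and 9.17 log2 units in HEP animals, 8.16, 8.99, 9.01 and 9.22 in HE, 8.01, 8.12, 8.32 and 8.72 in BEP and 8.13, 8.23, 8.50 and 8.81 in BE. Without estrogen it had 9.10, 9.39, 9.80 and 9.90 in HP, 8.79, 9.14, 9.42 and 9.70 in H, 8.54, 9.25, 9.37 and 9.62 in BP and 8.46, 8.86, 9.04 and 9.33 in B, and sham animals had 8.71, 9.01, 9.24 and 9.31. All 16 estrogen animals lay below the mean of the 16 others. HEP animals overlapped HP only at 9.17, BEP overlapped BP at 8.72, and BE overlapped B at 8.50 and 8.81. HE animals at 8.99, 9.01 and 9.22 lay in the range of H.

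VARS2 had 7.53, 7.62, 7.82 and 7.87 log2 units in HEP animals, 7.70, 7.70, 7.88 and 8.13 in HE, 7.07, 7.15, 7.26 and 7.76 in BEP and 7.25, 7.49, 7.59 and 7.64 in BE. Without estrogen it had 7.93, 8.09, 8.71 and 9.33 in HP, 7.87, 8.11, 8.26 and 8.42 in H, 7.70, 8.46, 8.50 and 9.09 in BP and 7.55, 7.64, 7.85 and 8.28 in B, and sham animals had 7.73, 7.94, 8.34 and 8.55. Every HEP animal was below every HP animal. Its cytosolic counterpart VARS went the other way without passing the test (0.32 ± 0.13, adjusted p = 0.0561).

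**Figure D4:**
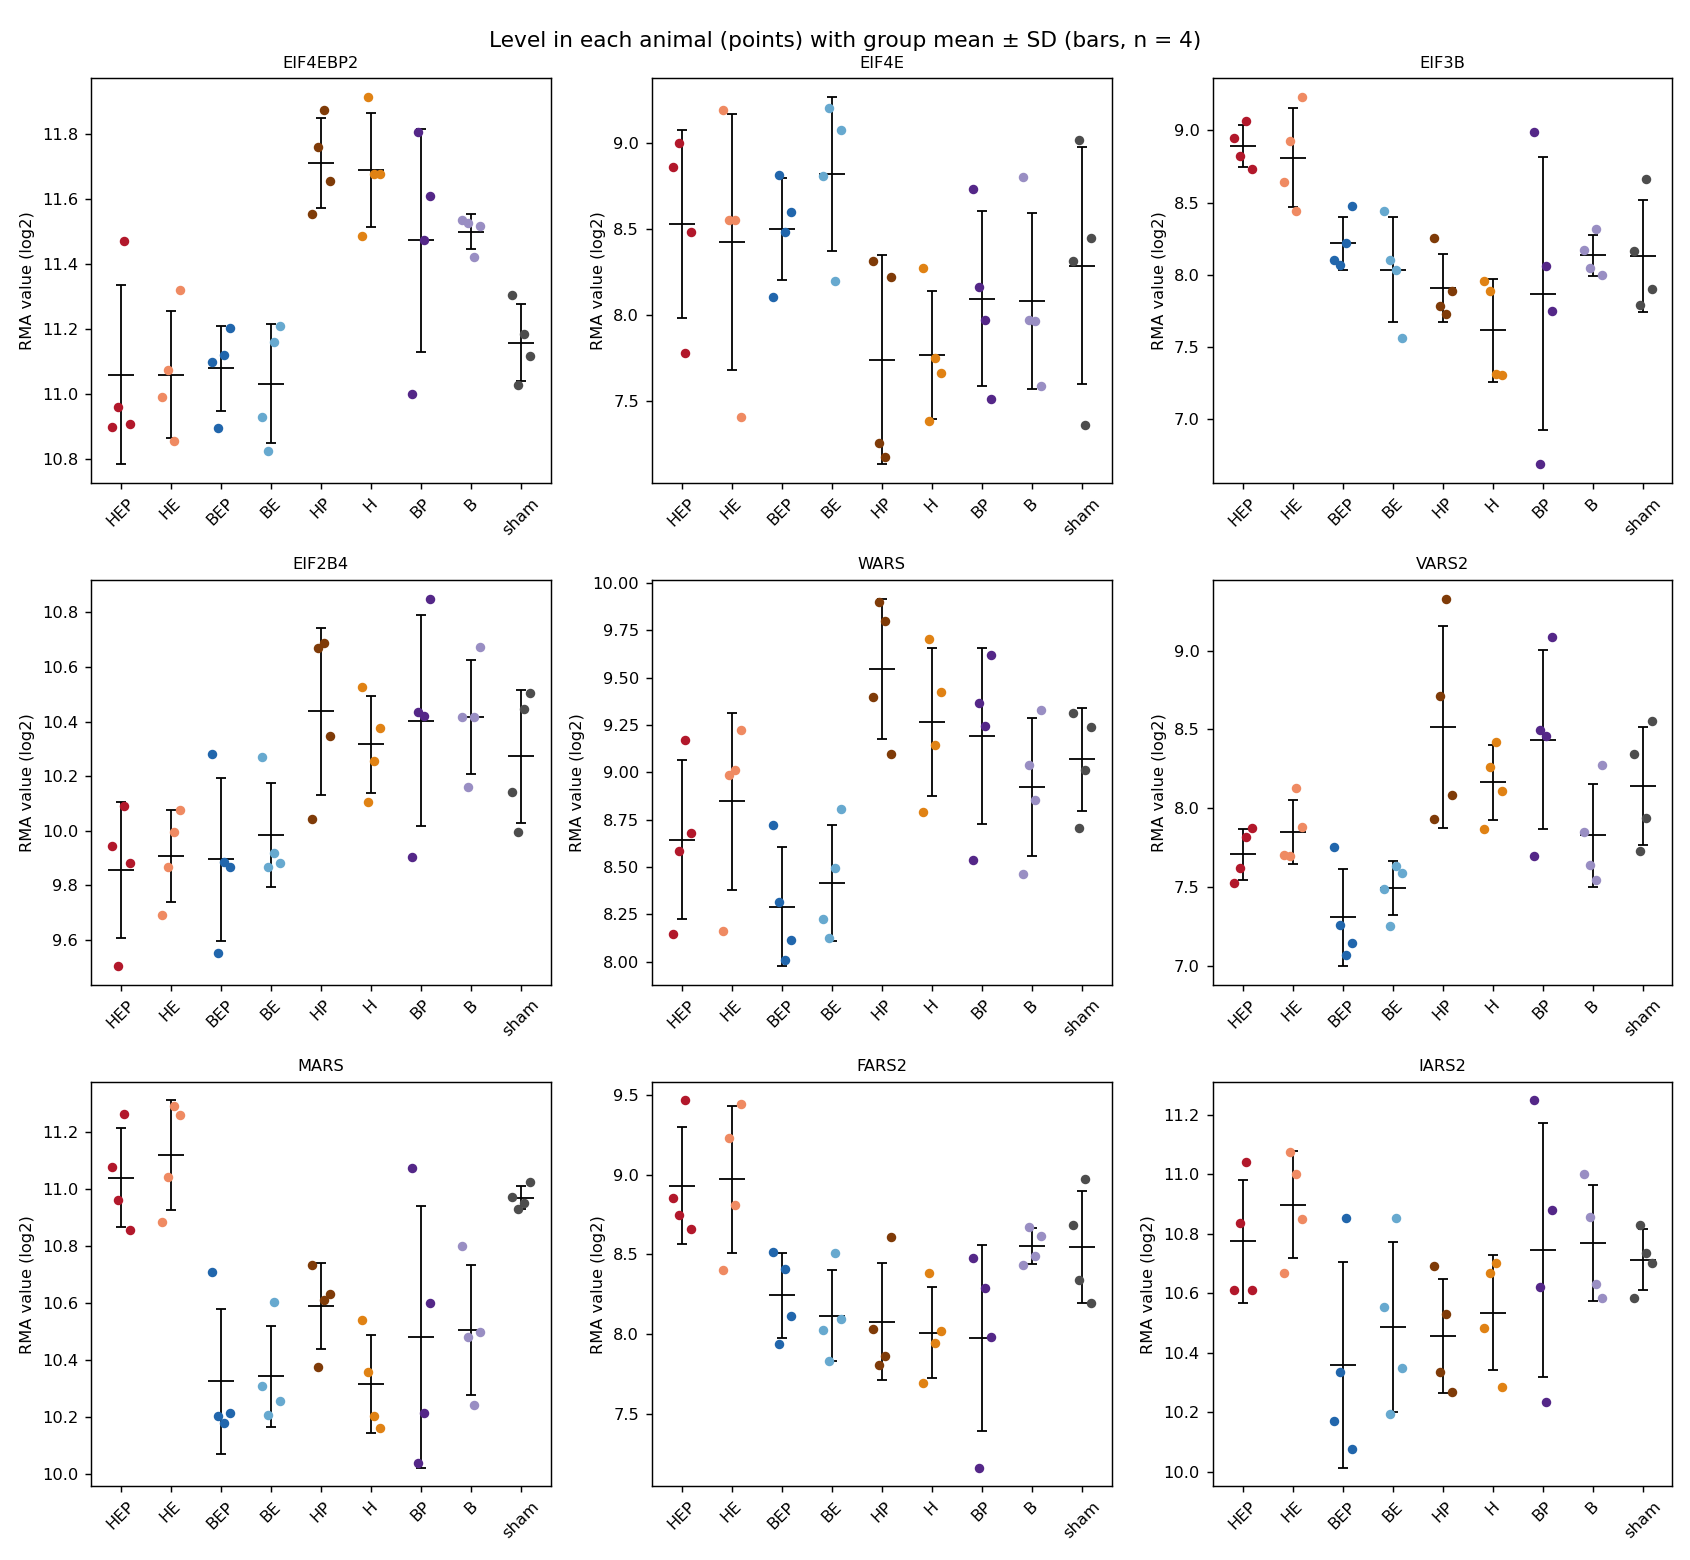
Level of 9 genes in each animal (points, log2 RMA value) with group mean ± SD (bars, n = 4) for the 9 groups; the vertical axes differ between genes and do not start at 0. On average over the groups, EIF4EBP2, EIF2B4, WARS and VARS2 are lower with estrogen and EIF4E is higher, with overlap between single groups. For VARS2 the HE animals lie within the range of the B animals. The means of EIF3B, MARS and FARS2 are highest in HEP and HE.

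Haloperidol was compared with bromocriptine over 16 animals each. With haloperidol, 3 of 41 factors and 3 of 19 synthetases rose, and 0 fell. Over all probe sets 3.85% rose and 3.13% fell. All 19 synthetases had a positive change, with a median of 0.24 log2 units, against 29 of 41 factors with a median of 0.08 and 9895 of 20792 probe sets with a median of -0.01. An unadjusted p under 0.05 was reached by 11 synthetases and 7 factors, and by 22.3% of all probe sets.

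The histidyl enzyme HARS rose by 0.50 ± 0.12 log2 units with haloperidol (adjusted p = 0.00721), MARS by 0.35 ± 0.09 (adjusted p = 0.0145) and GARS by 0.31 ± 0.08 (adjusted p = 0.0121). VARS at 0.41 ± 0.13 (adjusted p = 0.0559), the alanyl enzyme AARS at 0.24 ± 0.08 (adjusted p = 0.0768) and WARS at 0.37 ± 0.13 (adjusted p = 0.0879) missed the threshold. For GARS the 2 dimmer probe sets were not called, and over the mean of its probe sets the call was lost (adjusted p = 0.321). WARS was called on 1 of its 2 other probe sets (0.39, adjusted p = 0.0449).

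HARS had 10.10, 10.16, 10.20 and 10.72 log2 units in HEP animals, against 9.17, 9.40, 9.51 and 9.78 in BEP animals. It had 9.90, 10.21, 10.28 and 10.76 in HE animals, against 8.97, 9.37, 9.65 and 9.83 in BE animals. HP animals had 9.71, 9.79, 10.01 and 10.06, against 9.18, 9.37, 10.19 and 10.30 in BP, and H animals had 9.50, 9.69, 9.79 and 10.20, against 9.45, 9.53, 9.57 and 9.83 in B. Sham animals had 9.85, 10.20, 10.35 and 10.37. With estrogen present the haloperidol and bromocriptine groups did not overlap, and without estrogen they did.

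Among the factors, EIF4A3, an RNA helicase of the exon junction complex related to EIF4A1, rose by 0.45 ± 0.11 log2 units with haloperidol (adjusted p = 0.010), EIF3I by 0.35 ± 0.10 (adjusted p = 0.0264) and EIF2B2, the beta subunit of eIF2B, by 0.28 ± 0.09 (adjusted p = 0.0496). EIF4A3 had 10.41 to 10.79 in HEP against 9.92 to 10.35 in BEP, and 10.65 to 11.21 in HE against 9.98 to 10.62 in BE. It had 10.66 to 11.16 in HP against 10.22 to 11.18 in BP, and 10.35 to 10.94 in H against 9.99 to 11.01 in B. All 16 haloperidol animals were above the mean of the 16 bromocriptine animals. Without the 5 muscle-rich arrays EIF4A3 was not called (0.37, adjusted p = 0.0645). The call for EIF2B2 rests on the threshold and was lost with 28 of the 36 arrays left out in turn, with only the ovariectomized arrays (adjusted p = 0.0598) and without the 5 muscle-rich arrays (0.25, adjusted p = 0.12). EEF1E1, at 0.28 in the full fit, was called without the muscle-rich arrays (0.36, adjusted p = 0.0442). Without BP animal A, 5 factors were called, EEF1E1 among them at 0.37 (adjusted p = 0.0196).

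The interaction asks whether the estrogen change differs under haloperidol and under bromocriptine. The difference was called for 1 of 41 factors, EIF3B, and for 3 of 19 synthetases, MARS, FARS2 and the mitochondrial isoleucyl enzyme IARS2, in each case toward a higher estrogen change under haloperidol. Over all probe sets 3.87% were called in that direction and 3.62% in the other. The median difference was 0.15 log2 units for factors and 0.38 for synthetases, against -0.005 for all probe sets, and 17 of 19 synthetases and 26 of 41 factors were positive.

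MARS had the lowest p of these. Its values were 10.86, 10.96, 11.08 and 11.26 log2 units in HEP animals and 10.89, 11.04, 11.26 and 11.29 in HE animals. BEP animals had 10.18, 10.20, 10.21 and 10.71 and BE animals 10.21, 10.26, 10.31 and 10.60. HP animals had 10.38, 10.61, 10.63 and 10.73, H animals 10.16, 10.20, 10.36 and 10.54, BP animals 10.04, 10.21, 10.60 and 11.08, and B animals 10.24, 10.48, 10.50 and 10.80. Sham animals had 10.93, 10.95, 10.97 and 11.02. The HEP and HE animals were above every other ovariectomized animal except BP animal A, and the sham animals lay in their range.

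The estrogen change of MARS was 0.63 ± 0.13 log2 units under haloperidol and -0.16 ± 0.13 under bromocriptine, a difference of 0.79 ± 0.18 (adjusted p = 0.0109). It stayed called with each of the 36 arrays left out in turn and without the 5 muscle-rich arrays (0.66, adjusted p = 0.0349).

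For FARS2 the estrogen change was 0.91 ± 0.18 under haloperidol and -0.09 ± 0.18 under bromocriptine, a difference of 0.99 ± 0.26 log2 units (adjusted p = 0.0195). It had 8.66, 8.74, 8.85 and 9.46 in HEP and 8.40, 8.81, 9.23 and 9.44 in HE animals, against 7.81, 7.86, 8.03 and 8.61 in HP and 7.69, 7.94, 8.02 and 8.38 in H animals. BEP animals had 7.94, 8.12, 8.41 and 8.52 and BE animals 7.83, 8.02, 8.10 and 8.51, against 7.16, 7.98, 8.29 and 8.48 in BP and 8.43, 8.49, 8.62 and 8.67 in B animals. Every HE animal was above every H animal, and 3 of 4 BE animals were below every B animal. Sham animals had 8.20, 8.34, 8.68 and 8.97. Without the 5 muscle-rich arrays the difference was 0.85 (adjusted p = 0.098).

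For EIF3B the estrogen change was 1.09 ± 0.21 under haloperidol and 0.12 ± 0.21 under bromocriptine, a difference of 0.96 ± 0.29 log2 units (adjusted p = 0.0392). Without BP animal A, which had the highest BP value, the difference was 0.78 (adjusted p = 0.0618), and without the 5 muscle-rich arrays 0.76 (adjusted p = 0.12). The call was lost with 15 of the 36 arrays left out in turn.

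For IARS2 the estrogen change was 0.34 ± 0.14 under haloperidol and -0.33 ± 0.14 under bromocriptine, a difference of 0.68 ± 0.19 log2 units (adjusted p = 0.0314). It had 10.61 to 11.04 in HEP and 10.67 to 11.07 in HE animals, against 10.27 to 10.69 in HP and 10.28 to 10.70 in H animals, and 10.08 to 10.85 in BEP and 10.19 to 10.85 in BE animals, against 10.23 to 11.25 in BP and 10.58 to 11.00 in B animals. All of these groups overlapped in pairs. The difference was 0.59 without BP animal A (adjusted p = 0.055) and 0.66 without the 5 muscle-rich arrays (adjusted p = 0.0631).

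**Figure D5:**
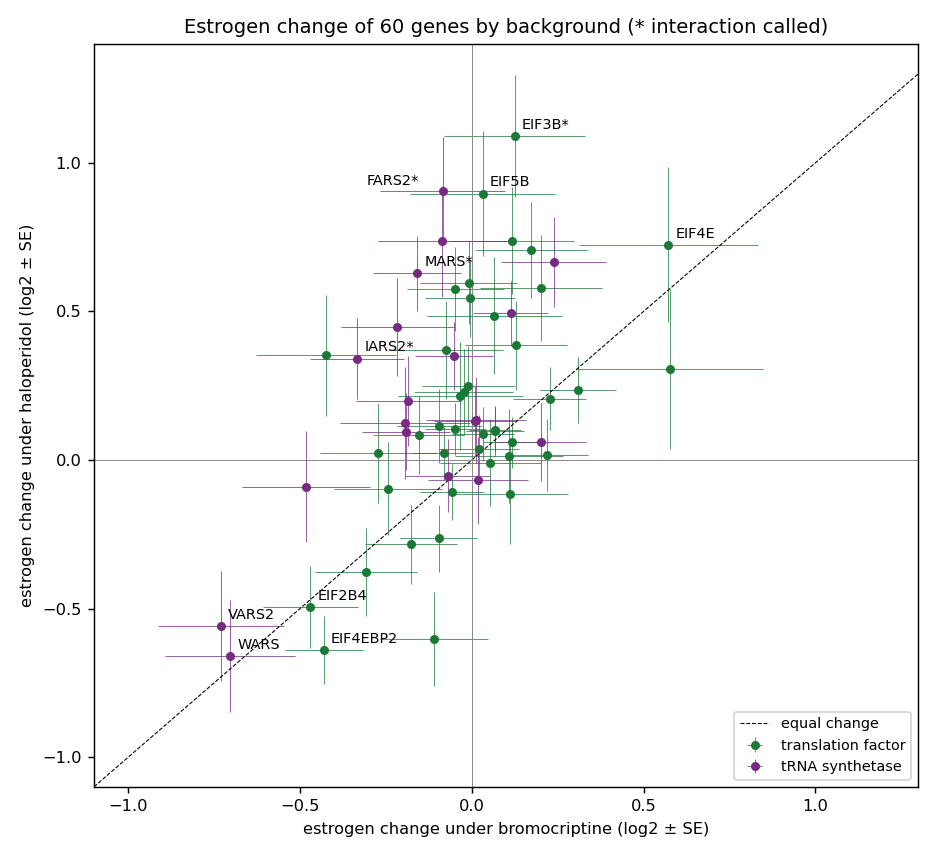
Estrogen change of each of the 60 genes under bromocriptine (horizontal) and under haloperidol (vertical), in log2 units ± SE, averaged over progesterone; stars mark the 4 called interactions and the dashed line marks equal change. Under haloperidol 14 of 19 synthetases and 31 of 41 factors lie above 0, under bromocriptine 6 of 19 and 20 of 41; WARS, VARS2, EIF2B4 and EIF4E lie near the dashed line.

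Read by class, the estrogen change was positive for 14 of 19 synthetases and 31 of 41 factors under haloperidol, with medians of 0.14 and 0.10 log2 units, and for 6 of 19 and 20 of 41 under bromocriptine, with medians of -0.09 and -0.01. The haloperidol change was positive for 18 of 19 synthetases with estrogen, with a median of 0.39, and for 12 of 19 without estrogen, with a median of 0.08. Over all probe sets these shares lay between 48.4% and 50.7%. The counts share animals and follow from the same interaction, so they describe it and add no test.

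The 6 members that fell with estrogen had negative changes in both backgrounds. WARS changed by -0.66 ± 0.19 under haloperidol and -0.70 ± 0.19 under bromocriptine, VARS2 by -0.56 ± 0.18 and -0.73 ± 0.18, EIF2B4 by -0.50 ± 0.14 and -0.47 ± 0.14 and EIF4EBP2 by -0.64 ± 0.11 and -0.43 ± 0.11. EEF1A1 changed by -0.38 ± 0.15 under haloperidol and -0.31 ± 0.15 under bromocriptine. EEF1AKMT1 changed by -0.60 ± 0.16 under haloperidol and -0.11 ± 0.16 under bromocriptine, a difference of -0.49 ± 0.22 (adjusted p = 0.163). The interaction was not called for these 6 genes, and the interval of each difference is wide (SE 0.16 to 0.27). EIF4E likewise changed by 0.72 ± 0.26 under haloperidol and 0.57 ± 0.26 under bromocriptine (difference 0.15 ± 0.37, adjusted p = 0.841). EIF2B3, VARS, EIF3I, EIF4A1, EIF5B and HARS had differences of 0.55 to 0.86 that missed the threshold (adjusted p = 0.0511 to 0.0729).

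In single pairs of groups, which share animals with the averages and are given side by side, calls were few outside the estrogen and haloperidol combination. In HE against H, 7 factors and 4 synthetases rose and 2 factors fell, where 9.81% of all probe sets rose and 10.1% fell. The factors that rose were EIF3B (1.20 ± 0.29), EIF5B (1.03 ± 0.30), EEF1E1 (0.85 ± 0.26), EIF2B3 (0.77 ± 0.20), EIF4G1 (0.74 ± 0.23), EIF3I (0.61 ± 0.20) and EIF4A1 (0.57 ± 0.18), and the synthetases FARS2 (0.96 ± 0.26), VARS (0.87 ± 0.27), MARS (0.80 ± 0.18) and GARS (0.60 ± 0.15). EIF4EBP2 and EEF1AKMT1 fell.

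In HEP against HP, 3 factors and 2 synthetases rose and 2 of each fell, where 8.84% of probe sets rose and 7.70% fell. EIF3B, EIF4G1, EIF3I, FARS2 and RARS rose, and EIF4EBP2, EIF2B4, WARS (-0.90 ± 0.27) and VARS2 (-0.81 ± 0.26) fell. Without the 5 muscle-rich arrays, which leave 2 HP animals, 4 factors and 1 synthetase rose and 1 factor and 0 synthetases fell, so the calls for WARS and VARS2 were lost. Leaving out single arrays moved the factors that rose between 0 and 8. Under bromocriptine, no member was called in BE against B, where 2.88% of probe sets rose and 0.895% fell, with 4 factors, 0 synthetases and 16.7% of all probe sets at an unadjusted p under 0.05. VARS2 alone was called in BEP against BP (-1.13 ± 0.26, adjusted p = 0.034), where 0.587% of probe sets rose and 0.197% fell.

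In HE against BE, 3 factors (EIF2B1, EIF3I and EIF4A1) and 5 synthetases (FARS2, VARS, HARS, MARS and GARS) rose by 0.55 to 0.92 log2 units, where 5.46% of probe sets rose and 5.05% fell. In HEP against BEP MARS alone was called (0.72 ± 0.18, adjusted p = 0.0426), where 0.635% of probe sets rose and 0.447% fell. No member was called in H against B or HP against BP, where 0.0337% and 0% of probe sets were called in either direction, with an unadjusted p under 0.05 for 2 factors, 1 synthetase and 10.5% of all probe sets in H against B, and for 0 factors, 0 synthetases and 4.84% in HP against BP. Leaving out single arrays moved the count in HE against BE between 0 and 5 factors and between 1 and 5 synthetases.

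Ovariectomy with bromocriptine was compared with the intact state in B against sham. No member was called, where 1.56% of all probe sets were higher in B and 2.62% lower, and 4 factors, 4 synthetases and 19.4% of all probe sets had an unadjusted p under 0.05. With array weights 2 factors and 4 synthetases were called. EIF4A3 had 9.99, 10.01, 10.01 and 11.01 log2 units in B animals and 10.76, 10.92, 10.98 and 11.09 in sham animals (-0.68 ± 0.22, adjusted p = 0.0747), with B animal D alone in the sham range. On average HARS (-0.60 ± 0.23, adjusted p = 0.14), MARS (-0.46 ± 0.18, adjusted p = 0.137) and GARS (-0.39 ± 0.15, adjusted p = 0.146) were lower in B than in sham animals. EIF4EBP2 (0.34 ± 0.16, adjusted p = 0.235) was higher in B, and none of these genes passed the test. The median change was -0.15 for the synthetases, or -0.02 without the muscle-rich B animal A, and 0.003 for the factors. That p of EIF4A3 was the smallest among the members in this comparison, and a p above the threshold does not show that levels were alike.

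Against the same sham animals, MARS was the only member called in the other 7 groups, in H (-0.65 ± 0.18, adjusted p = 0.0329), where 1.59% of probe sets were higher and 2.46% lower, while 1 to 9 factors and 1 to 7 synthetases had an unadjusted p under 0.05 in each of these groups, with 10.6% to 19.3% of all probe sets. The share of probe sets called in either direction was 0.630% in BE, 0.130% in BP, 0.164% in BEP, 3.61% in HE, 2.75% in HP and 0.731% in HEP. MARS had 10.16 to 10.54 in H animals and 10.93 to 11.02 in sham animals. Its HEP and HE means, 11.04 ± 0.17 and 11.12 ± 0.19, stood beside 10.97 ± 0.041 in sham animals (SD, n = 4 each).

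Progesterone called no member on average, where 0.0770% of probe sets were higher and 0.0144% lower, and 0 factors, 0 synthetases and 4.92% of all probe sets reached an unadjusted p under 0.05. Its interactions with estrogen and with haloperidol and the interaction of all 3 called no member either, where 0.250%, 0% and 0% of probe sets were called in either direction. At an unadjusted p under 0.05 they held 2 factors and 2 synthetases, 1 factor and 0 synthetases, and 0 of each, with 10.4%, 4.67% and 4.42% of all probe sets.

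Genes of neighbouring steps were examined from lists of textbook genes. Their counts stand beside 17.5% of all probe sets higher and 17.6% lower with estrogen, and 3.85% higher and 3.13% lower with haloperidol. For the interaction of estrogen with haloperidol these shares were 3.87% and 3.62%. Of 26 measured ribosome biogenesis genes, 12 rose and 1 fell with estrogen, 11 rose and 0 fell with haloperidol, and 7 had a called interaction, all positive. Among them MYC, the transcription factor that drives ribosome production, rose by 0.65 ± 0.18 with estrogen and 0.66 ± 0.18 with haloperidol, DKC1, the pseudouridine synthase of small nucleolar particles, by 0.37 ± 0.14 and 0.64 ± 0.14, and WDR12, an assembly factor of the large subunit, by 0.55 ± 0.10 and 0.49 ± 0.10. FBL, the methyltransferase of nucleolar particles, rose with haloperidol (0.54 ± 0.10) and was lower in B than in sham animals (-0.80 ± 0.20).

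Of 9 measured partners of the members, 3 rose with estrogen. AIMP2, a scaffold of the multi-synthetase complex, rose by 0.32 ± 0.12 with estrogen and had a called interaction of 1.00 ± 0.24 (adjusted p = 0.0124). Of 19 genes of the ATF4 branch, which in mammals also governs several synthetase genes, 6 rose and 3 fell with estrogen, and 4 rose and 1 fell with haloperidol. ASNS, the asparagine synthetase, rose by 0.30 ± 0.11 with estrogen and 0.40 ± 0.11 with haloperidol, with an interaction of 0.77 ± 0.22 (adjusted p = 0.0333). DDIT3, a stress transcription factor of that branch, fell with estrogen (-0.50 ± 0.10). Of 10 genes around mTORC1, 2 rose and 1 fell with estrogen: LAMTOR2, a lysosomal anchor of the complex, rose (0.66 ± 0.14), and SESN1, an inhibitor of it, fell (-0.42 ± 0.11) and fell with haloperidol too (-0.38 ± 0.11).

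Of 16 luminal epithelial markers, 5 rose and 0 fell with estrogen, 2 rose and 1 fell with haloperidol, and 1 had a called interaction. Of 19 cell cycle genes, 19 rose with estrogen, 4 rose with haloperidol and 11 had a called positive interaction. Over all probe sets 17.5% were higher and 17.6% lower with estrogen, 3.85% and 3.13% with haloperidol, and 3.87% and 3.62% in the interaction. The part of the luminal and cell cycle genes in the changes of the translation genes was not tested.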

How the data were processed

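Each animal's total RNA was hybridized to 1 array. The deposited values are probe set summaries made by the authors with RMA, per the submitters' processing notes; neither its version nor the base of the logarithm is given in the sources used here, and the deposited values, 1.552 to 13.74, were read here as log2 from their range, on which every fold rests. They were not normalized again, and the number of arrays limits the precision.

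A model with 1 mean per group was fitted to 20792 probe sets on 36 arrays with limma 3.58.1 in R 4.3.3 (27 residual and 4.157 prior degrees of freedom, statmod 1.5.0 for random blocks). Two-sided p-values had a Benjamini-Hochberg adjustment over the 20792 probe sets, separately in each of 27 comparisons. An adjusted p under 0.05 was called. Changes are log2 differences of group means ± SE. An interaction is the change with 1 factor where the other is present minus that where it is absent, taken as a mean over the third factor. Pigs were taken as separate animals, as the design text states. The 20792 probe sets comprised 9149 with 1 symbol, 178 with several and 11465 with none here. Of the members, 37 had 1 probe set and 23 several, and 2 probe sets of a member symbol with a second symbol were left out. Members, lists and tests were chosen with earlier results of these data known. Named are the called members with the largest changes, a fixed set of central factors, and up to 4 called genes per list. Sequences and positions were not used here. Before use, the fit was tested on simulated data in which 200 probe sets carried a known change. A change of 0.5 log2 units was called in 36% of them for estrogen and 36.5% for haloperidol on average. In B against sham it was called in 0%, and in the interaction of estrogen with haloperidol in 1%. For a change of 1 log2 unit these shares were 91.5%, 87%, 38% and 35%, so small changes were often missed in the simulated data. More probe sets were called in the real data, with estrogen 3648 higher and 3657 lower, which makes the adjusted threshold less strict. The simulated noise followed all probe sets, whereas the median SD within groups was 0.267 for factors, 0.276 for synthetases and 0.364 for all genes. These shares are therefore not the shares expected for the members. Figures used Python 3.11.15 with matplotlib.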

Additional observations from a re-analysis of the deposited data

Results flagged for a closer look

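In single groups of 4 animals, 1 animal stood far from the other 3 in 8 of the 135 groups examined, where chance gives about 1 in 20. BE animal A had 10.271 log2 units of EIF2B4, against 9.868 to 9.918 in the other BE animals. HP animal C had 11.1614 of EIF3I, against 11.335 to 11.370. B animal D had 11.0058 of EIF4A3, against 9.987 to 10.013, and was the only B animal in the sham range. EIF4EBP2 had 11.4214 in B animal C, against 11.517 to 11.536, and 11.4708 in HEP animal C, against 10.899 to 10.962. HEP animal C also had 10.7188 of HARS, against 10.099 to 10.196. BEP animal A had 10.7078 of MARS, against 10.177 to 10.213. The mean over the translation factors was 0.1742 in HEP animal A, against 0.07774 to 0.09068.

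The estrogen change differed between haloperidol and bromocriptine, by the test of that difference, for MARS (0.787745 log2 units), FARS2 (0.99115), EIF3B (0.96366) and IARS2 (0.675681). In each case the change was higher under haloperidol.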

How the results depend on the processing

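Of 31 calls of single members, 0 reversed, 25 were kept with each array left out in turn and 16 in every other alternative. Reversal was not assessed for the class counts and medians. Without the 5 muscle-rich arrays the synthetase median in the estrogen and progesterone interaction changed sign, from -0.09597 to 0.01926. Without BP animal A, 14 factors rose and 6 fell with estrogen, and 6 synthetases rose and 3 fell, against 11, 4, 4 and 2. Leaving out 1 array in turn (lowest to highest count) gave 2 to 5 factors and 3 to 5 synthetases higher with haloperidol, and, for the interaction of estrogen with haloperidol, 0 (without BP animal A) to 5 factors and 2 to 5 synthetases, with medians of 0.07813 to 0.1721 and 0.2794 to 0.3963. In HE against BE it gave 0 to 5 factors and 1 to 5 synthetases, in HE against H 4 to 7 factors higher and 1 to 2 lower, in HEP against HP 0 to 8 factors higher and 1 to 4 lower with 0 to 2 synthetases either way, and in HEP against BEP 0 to 1 synthetase. Lower calls ranged over 0 to 1 factor in B against sham and BE against B, 0 to 2 factors and 0 to 2 synthetases in BEP against BP, 0 to 1 factor and 0 to 2 synthetases in BEP against sham, 0 to 1 of each in BP against sham and 0 to 1 synthetase in H against sham. The synthetase median ranged over -0.1965 to -0.02185 in B against sham and -0.2202 to -0.03903 in the interaction of all 3 factors.

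Array weights called 1 factor higher and 1 lower and 1 synthetase higher and 3 lower in B against sham, 5 factors and 5 synthetases higher with haloperidol, and 3 factors in the estrogen and haloperidol interaction. The mean over a gene's probe sets called 1 factor higher in B against sham, with a synthetase median of -0.05282, and 2 factors lower and 7 synthetases higher with estrogen, 5 synthetases with haloperidol and 5 factors in the interaction. With 1 probe set per gene, 5 synthetases were called with haloperidol and 4 factors in the interaction. Without dim probe sets there were 4 factors in the interaction, 5 higher in HEP against HP, 1 higher in H and in HP against sham, and 2 synthetases in HEP against BEP. A variance trend gave 4 factors in the interaction, and a second quantile normalization a factor median of -0.07562, against -0.1575, for the interaction of all 3 factors.

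The title letters are not stated to link animals: same-letter deviations had a median correlation of 0.0453, and 14 of 36 arrays were closest to their own letter. The letter as a replicate block gave 3 factors in the interaction as a fixed term and 2 as a random term, against 1, and as a fixed term lost EIF2B2 with haloperidol (adjusted p = 0.06) and gained EIF2AK2 with estrogen (adjusted p = 0.0498).

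Leaving out the 5 muscle-rich arrays, chosen after seeing the data, gave 0 factors and 1 synthetase (MARS) in the interaction, 2 factors and 2 synthetases lower in BEP against BP, 1 factor and 0 synthetases lower and 1 synthetase higher in HEP against HP, 5 factors in HE against BE, 1 factor and 3 synthetases higher in HEP against BEP, 1 synthetase lower in BE against sham, 1 factor and 1 synthetase lower in BP against sham, and 1 factor higher in HE and in HEP against sham. Its medians were -0.02185 for synthetases in B against sham, 0.01926 (against -0.09597) for synthetases in the estrogen and progesterone interaction, and -0.07798 for factors in the interaction of all 3. Smaller shifts with estrogen were 5 factors lower, 5 synthetases higher and 3 lower, against 4, 4 and 2. With haloperidol 4 synthetases rose, against 3, and in HE against H 6 factors, against 7. HE against BE, HEP against BEP, and BE, HE and HEP against sham use none of the 5 arrays left out. Their log2 changes were the same, and only the shared estimate of spread and the adjustment differed. Leaving the arrays out also leaves fewer animals, and the cause of the other differences was not tested.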

Other observations

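Several members were measured by probe sets that did not move together. Of 23 genes with several probe sets, all had the same sign in 14 for estrogen, 15 for haloperidol and 13 for B against sham, and in no gene were 2 probe sets called in opposite directions. EIF4E2, a relative of EIF4E that binds the cap and represses translation, was not called on its brightest probe set, but a second one, nearly as bright, was higher with haloperidol (0.62 ± 0.11 log2 units, adjusted p = 0.000667) and lower in B than in sham animals (-0.79 ± 0.22, adjusted p = 0.0382). A second probe set of EIF4EBP2 was higher in B than in sham animals (0.91 ± 0.26, adjusted p = 0.0417). A second probe set of EIF5A was higher with estrogen (0.75 ± 0.29, adjusted p = 0.0443) where the brightest changed by 0.06. These probe sets were singled out after their values were seen, and which transcripts they detect was not examined here.

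Of the mitochondrial translation genes outside the rule, MTFMT, which formylates the initiator methionine, fell with estrogen (-0.43 ± 0.12, adjusted p = 0.00476), and MRRF, the mitochondrial ribosome recycling factor, had a called interaction of estrogen with haloperidol (1.00 ± 0.26, adjusted p = 0.0208).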
